A study of Mus musculus with 6 samples.

Results

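The actin and tubulin cytoskeleton genes described here were 51 of the 13026 genes in the deposited table, chosen by gene symbol alone. The symbol patterns cover the cytoplasmic actins, the actin-related proteins, the Arp2/3 complex, alpha-actinins, myosin heavy and light chains, tropomyosins, cofilins, profilins, thymosins and the alpha-, beta- and gamma-tubulins. They matched 56 genes, and the 5 genes Actg2, Myh11, Myl9, Tpm1 and Tpm2 were left out by name. The patterns read symbols and no measured values. The libraries were made from whole kidneys of adult male mice on a C57BL/6 J background, 3 of wild type (LIGHT+/+) and 3 of mice without LIGHT (LIGHT-/-), the cytokine TNFSF14. Both groups had the same surgery, with 32 min of ischemia in both kidneys and 24 h of reperfusion, and no unoperated kidney was analysed here. The labels give no tissue restriction of the deletion and do not say whether each library came from a separate mouse, and p-values therefore describe only how far these libraries vary, which may be technical.

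Actin monomers bound to profilin feed growing filaments, thymosins hold monomers in reserve, and cofilin severs old filaments. The Arp2/3 complex starts branches on existing filaments, tropomyosins coat filaments, alpha-actinins cross-link them, and non-muscle myosins pull on them. Tubulins form microtubules from pairs of an alpha and a beta chain, and gamma-tubulin starts them. In the proximal tubule of the kidney, actin supports the brush border and the cell contacts, and ischemia is known to disrupt both.

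Values are FPKM, a measure per transcript length and per library total, and fold changes are knockout against wild type on the scale log2(FPKM + 1), where folds of weakly expressed genes come out too small. Library sums of FPKM ran from 299667 to 318493, and the number of reads behind each is unknown. Knockout library 3 stood apart from all others, with a Pearson correlation across genes of 0.934 to 0.956 with them against 0.976 to 0.989 among the other 5. Fold changes that move by over 1.5 times without it are given both ways. All 16 proximal tubule markers were detected, as the kidney label requires. Summed, they reached 1452 to 2048 FPKM across wild type libraries and 2355 to 4044 across knockout libraries, all 16 with higher fitted values in the knockout. The targeted gene was not analysed here, so genotype was not checked on it.

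None of the members passed the test between genotypes (limma, adjusted p under 0.05 over all 12836 genes tested), while most had lower values in the knockout. Of the 50 members tested, 0 were called, against 0.117% of all genes, and 0 were called lower, against 0.0935%. At an unadjusted p under 0.05 in limma there were 5 members, 10% of them, against 8.08% of all genes. Of these, 4 had lower values, against 3.74%, and 1 had higher values, against 4.34%. Lower fitted values in the knockout were found in 42 of the 50 members, against 52.1% of all genes, and the median log2 fold change was -0.23 against -0.01 over all genes. Without knockout library 3, 41 of the 50 were lower, against 53.6% of all genes, and the median was -0.12. In that fit 0 members were called, against 0.0867% of all genes, and 4 had an unadjusted p under 0.05 in limma, against 7.16%. All values of the knockout libraries lay below all values of the wild type libraries in 15 members, 30% of those tested, against 8.8% of all genes. The reverse held in 2 members, Myh14 and Myl12b, against 7.76%. Without knockout library 3 these counts were 18, against 12.7% of all genes, and 2, against 11.2%. With all 6 libraries scaled to the same FPKM sum, the count of 15 became 9, against 5.85% of all genes, and the count of 2 became 1, against 9.14%. The member that was not tested is Myl7, a myosin light chain of heart muscle, which averaged under 0.5 FPKM over the libraries.

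**Figure D1:**
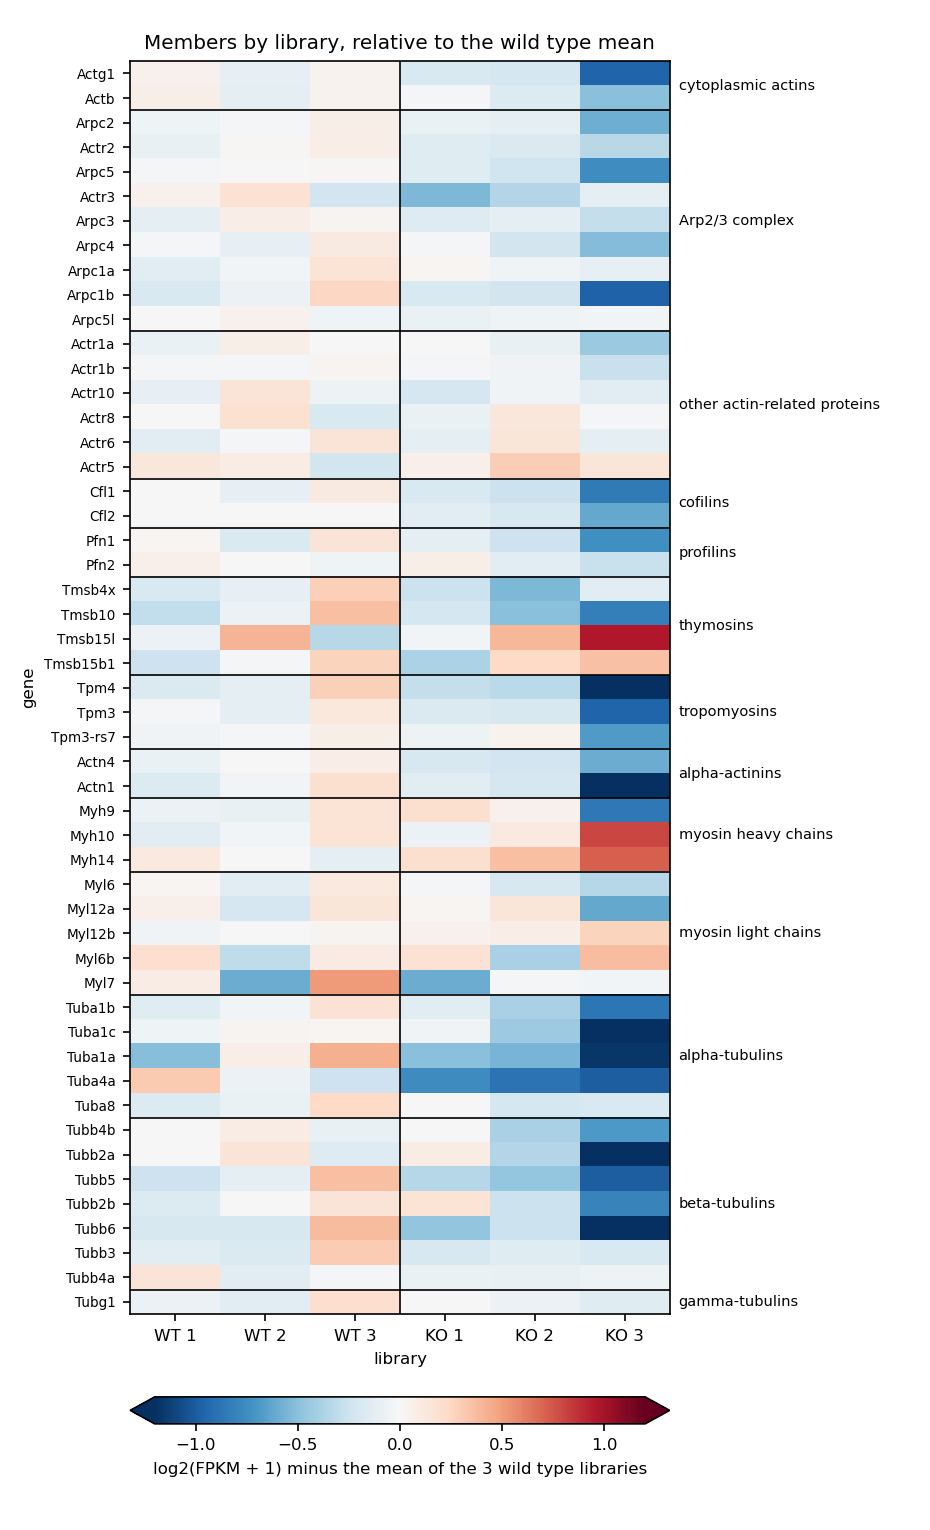
Each row is one of the 51 members and each column 1 library, and colour gives log2(FPKM + 1) minus the mean of the 3 wild type libraries, blue for lower and red for higher. Blue is deepest in knockout library 3, which held the lowest value in 33 of the 50 members tested, and Tuba4a is blue in all 3 knockout libraries.

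Over the members tested, the median difference from the wild type mean on the log2(FPKM + 1) scale was -0.05, -0.03 and 0.09 in the wild type libraries and -0.08, -0.19 and -0.51 in the knockout libraries. Knockout library 1 was thus close to wild type, and knockout library 3 was far below. The lowest of the 6 values was in knockout library 3 in 33 of the 50 members, against 30.3% of all genes, and the highest was in the same library in 6, against 29.8%. Wild type library 3 held the highest value in 26 members, against 26.7%. Summed over the 51 members, the level was 4304, 4266 and 4800.0 FPKM in the wild type libraries against 4102, 3752 and 2844 in those without LIGHT. The members held 1.42 ± 0.114% of all FPKM in wild type and 1.17 ± 0.191% without LIGHT (SD, n = 3 each). In whole tissue, fewer cells of a type and less RNA per cell cannot be told apart.

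Marker lists did not all run like the members, and lower fitted values were found in 52.1% of all genes. In knockout library 3 the median log2 difference from the wild type mean was -1.28 in tubular injury and -1.17 in neutrophil markers. It was -0.29 in leukocyte, -0.15 in smooth muscle and -0.004 in podocyte markers. Endothelial markers stood at 0.05, fibroblast and pericyte markers at 0.09 and proximal tubule markers at 1.02. In knockout libraries 1 and 2 the same median was -0.14 and -0.15 in tubular injury, -0.52 and -0.04 in neutrophil and -0.20 and -0.30 in leukocyte markers. Smooth muscle markers stood at -0.56 and -0.17, podocyte markers at -0.26 and -0.07 and endothelial markers at -0.20 and 0.04. Fibroblast and pericyte markers stood at -0.23 and 0.13 and proximal tubule markers at 0.32 and 0.41. The summed level of the 20 tubular injury markers ranged from 6708 to 7465 FPKM among wild type libraries and from 2288 to 6903 among knockout libraries, with the lowest sum in knockout library 3. Of the 20, 17 had lower fitted values in the knockout, or 15 without knockout library 3, where 53.6% of all genes did. Of the 15 leukocyte markers tested, 13 had lower fitted values, and their sum ranged from 185 to 337 FPKM and, without LIGHT, from 155 to 160.3. All 9 neutrophil markers tested had lower fitted values, with sums of 66.2 to 101 and 21.3 to 69.8 FPKM in the same order. S100a8 and S100a9 are in both the leukocyte and the neutrophil list, so these counts and sums are not separate. Of the 13 smooth muscle markers tested, 8 had lower fitted values, with sums of 266 to 559 and 243 to 280.3 FPKM, and 5 of the 13 are the genes left out of the members by name. Endothelial markers summed to 195 to 237 and 187 to 220.4 FPKM, podocyte markers to 120.2 to 142 and 107 to 119.6, and fibroblast and pericyte markers to 93.2 to 149 and 93.4 to 126. Of these, 6 of 10 endothelial, 5 of 8 podocyte and 4 of 9 fibroblast and pericyte markers had lower fitted values. None of these markers was listed at 0 in any library. Of 19 skeletal and cardiac muscle markers, 2 were tested, Tnnc1 and Pvalb, with sums of 0.726 to 0.920 and 1.00 to 10.4 FPKM, and Pvalb was listed at 0 in wild type library 2. The part of these cell types in the members' values was not tested.

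The members spanned a wide range of levels. In wild type, 13 members averaged over 100 FPKM, 26 from 10 to 100, 8 from 1 to 10 and 4 under 1. All 13 in the top class had lower fitted values in the knockout. Highest in wild type was Myl6, the essential light chain of non-muscle myosin, at 587 ± 50.6 FPKM, followed by the actins Actg1 at 468 ± 26.8 and Actb at 356 ± 23.6 (SD, n = 3 each). At the bottom stood Tuba8, Tubb3, Tubb4a and Myl7, all under 1 FPKM in wild type.

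Many cytoskeleton genes are targets of serum response factor, which binds a short element called the CArG box, so promoters that hold one are shown. RefSeq promoters of the build GRCm38.p6, each from 250 bases before to 50 after a start, were matched by symbol for 43 members and not for Actb, Actr5, Actr8, Arpc5l, Tpm3-rs7, Tubb2b, Tubb6 and Tubg1. On either strand, a CArG box was found in at least 1 promoter of 4 of the 43 members, 9.3%, against 151 of 9905 matched genes of the table, 1.52%, and 1.63% of all 32851 promoters. The 4 members are Actg1, Arpc4, Myl6 and Myl7, and a match is a description of letters and not a shown binding site. The TATA motif TATAAA was found in 3 of the 43 members, against 8.98% of matched genes of the table. For the 3 tested members, the sequences read 5′ to 3′ on the gene's strand with the box in capitals, at chr11:120348446-120348745 (minus strand), chr10:128492960-128493259 (minus strand) and chr6:113377863-113378162 (plus strand). The box begins 90 bases before the start in Actg1, 50 before a downstream annotated start in Myl6 and 250 before the start in Arpc4.
Actg1: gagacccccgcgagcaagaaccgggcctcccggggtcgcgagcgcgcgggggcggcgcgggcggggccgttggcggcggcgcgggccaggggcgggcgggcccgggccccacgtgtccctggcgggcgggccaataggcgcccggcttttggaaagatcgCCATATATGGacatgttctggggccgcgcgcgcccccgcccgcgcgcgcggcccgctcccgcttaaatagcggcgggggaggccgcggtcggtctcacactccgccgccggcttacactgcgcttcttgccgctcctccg
Myl6: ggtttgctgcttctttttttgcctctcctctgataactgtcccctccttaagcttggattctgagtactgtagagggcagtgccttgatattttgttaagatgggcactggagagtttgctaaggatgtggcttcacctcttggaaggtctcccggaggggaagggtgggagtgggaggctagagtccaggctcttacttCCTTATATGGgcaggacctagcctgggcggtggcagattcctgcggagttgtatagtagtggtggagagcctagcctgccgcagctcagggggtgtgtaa
Arpc4: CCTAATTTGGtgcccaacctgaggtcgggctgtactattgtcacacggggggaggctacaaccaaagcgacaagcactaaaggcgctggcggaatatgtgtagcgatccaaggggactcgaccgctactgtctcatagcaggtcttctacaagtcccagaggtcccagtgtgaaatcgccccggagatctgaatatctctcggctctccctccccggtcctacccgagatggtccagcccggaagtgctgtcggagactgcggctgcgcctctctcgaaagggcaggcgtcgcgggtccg

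The 2 cytoplasmic actins, which form the bulk of non-muscle filaments, had lower means in the knockout and neither was called. Actg1, gamma-actin (ENSMUSG00000062825.15, chromosome 11, 120345690 to 120348542 in mm10), stood at 484, 437 and 482 FPKM in wild type and at 413, 402 and 239.9 in knockout libraries. All 3 knockout values were lower than all wild type values, with a log2 fold change of -0.45 ± 0.22 (SE; limma adjusted p = 0.598) and of -0.20 without knockout library 3. Actb, beta-actin (ENSMUSG00000029580.14, chromosome 5, 142903115 to 142906754), stood at 374, 329 and 366 FPKM in wild type and at 351, 317 and 251 in knockout libraries. The groups overlapped, with a log2 fold change of -0.23 ± 0.14 (limma adjusted p = 0.641) and of -0.094 without knockout library 3. Of the 31-base words in their transcripts, Actg1 shared 40.2% and Actb 23.5% with other genes, pseudogenes among them, so part of their reads cannot be placed with certainty.

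All 9 tested members of the Arp2/3 complex, which nucleates branched actin, had lower fitted values in the knockout, except that Arpc1a came out at 0.00022 with the libraries scaled to the same FPKM sum and 0.042 without wild type library 3. The median log2 fold change was -0.25, or -0.14 without knockout library 3. In 5 of them, Arpc2, Actr2, Arpc5, Arpc3 and Arpc1b, all knockout values lay below all wild type values, as in 8.8% of all genes. With the libraries scaled to the same FPKM sum, only Arpc5 among these stayed apart, and the groups overlapped in Arpc2, Actr2, Arpc3 and Arpc1b. Arpc2, a core subunit and the most abundant, stood at 139, 143 and 151 FPKM in wild type and at 137, 134 and 95.7 in knockout libraries (log2 fold change -0.26 ± 0.15 SE, limma adjusted p = 0.629, or -0.092 without knockout library 3). Knockout libraries 1 and 2 lay just under the wild type range and library 3 far under it. Arpc5 was even in wild type, at 56.2, 57.4 and 57.8 FPKM, and stood at 51.5, 48.4 and 33.6 in knockout libraries (log2 fold change -0.38 ± 0.16, limma adjusted p = 0.592, or -0.19 without that library). Actr2, which encodes the Arp2 subunit, stood at 65.9, 70.9 and 74.1 FPKM in wild type and at 63.5, 62.2 and 55.6 in knockout libraries (log2 fold change -0.22 ± 0.10, limma adjusted p = 0.592).

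Actr3, which encodes the Arp3 subunit, was not lowest in knockout library 3. It stood at 53.0, 57.7 and 43.5 FPKM in wild type and at 34.9, 39.9 and 46.9 in knockout libraries. Its lowest value was in knockout library 1, and knockout library 3 lay inside the wild type range. The log2 fold change was -0.34 ± 0.15 (SE; limma adjusted p = 0.595), and -0.44 without knockout library 3. Actr3 shared 33.4% of its 31-base words with the processed pseudogene Gm8822, so part of its reads may be divided between them. Of the other subunits, Arpc3 averaged 44.3 ± 3.13 FPKM in wild type and 38.8 ± 2.30 without LIGHT, and Arpc4 39.7 ± 2.85 and 33.5 ± 5.84 (SD, n = 3 each). Arpc1b stood at 22.7, 24.6 and 30.9 FPKM and at 22.6, 22.0 and 12.7, so that its groups were barely apart. Arpc1a and Arpc5l, alternative forms of Arpc1b and Arpc5, had log2 fold changes of -0.04 ± 0.10 and -0.06 ± 0.08, or -0.011 and -0.065 without knockout library 3, and Arpc5l too was lowest in knockout library 1.

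The 6 other actin-related proteins had small differences, with a median log2 fold change of -0.07, 4 lower and 2 higher. Without knockout library 3 the median was -0.008, with 3 lower and 3 higher. Actr1a, the main subunit of the dynactin filament that links dynein to its cargo, stood at 52.4, 58.3 and 55.6 FPKM in wild type and at 55.2, 51.9 and 40.4 in knockout libraries (log2 fold change -0.18 ± 0.13 SE, limma adjusted p = 0.680, or -0.049 without knockout library 3). Its close relative Actr1b stood at 39.5, 39.4 and 40.7 FPKM and at 39.1, 38.6 and 32.9, with no overlap (log2 fold change -0.11 ± 0.10, or -0.036 without that library). With the libraries scaled to the same FPKM sum, the groups of Actr1b overlapped. Actr10, another dynactin subunit, averaged 20.5 ± 2.04 and 18.7 ± 1.11 FPKM. Actr5, Actr6 and Actr8 act in chromatin remodelling complexes in the nucleus, and their log2 fold changes were 0.17 ± 0.14, -0.02 ± 0.12 and 0.01 ± 0.12. The sign of Actr6 turned in 5 settings, to between 0.012 with the libraries scaled to the same FPKM sum and 0.13 with library weights. Actr8 turned to -0.075 when wild type library 3 was left out and to -0.048 when knockout library 2 was. Without knockout library 3, Actr6 and Actr8 were at 0.020 and 0.032.

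Genes of filament turnover were lower in the knockout without a call. Cfl1, cofilin of non-muscle cells, stood at 211, 198 and 228 FPKM in wild type and at 186, 177 and 117 in knockout libraries. Its groups did not overlap, with a log2 fold change of -0.43 ± 0.19 (SE; limma adjusted p = 0.592) and of -0.22 without knockout library 3. Cfl2, the cofilin best known from muscle, was nearly constant in wild type at 55.1, 54.9 and 54.7 FPKM, and stood at 50.2, 48.1 and 35.5 in knockout libraries (log2 fold change -0.31 ± 0.14, limma adjusted p = 0.595, or -0.16 without that library). Pfn1, the widely expressed profilin, stood at 131, 114 and 143 FPKM and at 119, 109 and 76.9, with overlap (log2 fold change -0.37 ± 0.18, limma adjusted p = 0.598, or -0.18 without it). Pfn2, the profilin known from neurons, averaged 22.8 ± 0.938 and 21.1 ± 2.64 FPKM.

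The thymosins did not follow a common pattern. Tmsb4x, the main monomer-binding thymosin, stood at 165, 175 and 229.6 FPKM in wild type and at 157, 129 and 173 in knockout libraries (limma adjusted p = 0.613). Knockout library 3 was its highest knockout value, unlike in most members. Tmsb10, a close relative, stood at 69.4, 81.3 and 109.7 FPKM and at 73.4, 59.8 and 47.9, with a log2 fold change of -0.51 ± 0.21 (SE; limma adjusted p = 0.592). Tmsb15l and Tmsb15b1, which overlap on the same strand, had a joint level of 2.82 ± 0.656 FPKM against 3.95 ± 1.78 without LIGHT (SD, n = 3 each), with the highest sum, 5.75, in knockout library 3.

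All 3 tropomyosins and both alpha-actinins had lower means in the knockout, although the fitted value of Tpm3-rs7 was 0.014 with library weights. Tpm4, a tropomyosin of non-muscle filaments, stood at 224, 233 and 309 FPKM in wild type and at 207, 201 and 108 in knockout libraries. The groups did not overlap, with a log2 fold change of -0.61 ± 0.27 (SE; limma adjusted p = 0.595) and -0.31 without knockout library 3. Tpm3 and its near copy Tpm3-rs7, which shares 78.6% of its 31-base words with Tpm3, had a joint level of 64.7 ± 5.39 FPKM against 49.1 ± 14.2 without LIGHT (SD, n = 3 each), also without overlap. Actn4, the alpha-actinin whose mutations cause a podocyte disease (ENSMUSG00000054808.14, chromosome 7, 28893248 to 28962340), stood at 97.6, 103.3 and 109.6 FPKM in wild type and at 90.3, 88.2 and 67.9 in knockout libraries. It was lower in all 3 knockout libraries (log2 fold change -0.34 ± 0.13, limma adjusted p = 0.592, or -0.21 without knockout library 3). Actn1, the other non-muscle alpha-actinin, stood at 61.7, 67.5 and 79.0 FPKM and at 63.0, 59.7 and 26.2, so that its low mean came from knockout library 3 (log2 fold change -0.57 ± 0.33, or -0.17 without that library).

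The myosin heavy chains ran differently from the actin genes. Myh9, non-muscle myosin IIA, stood at 73.9, 72.5 and 86.6 FPKM in wild type and at 88.5, 80.4 and 42.2 in knockout libraries. Knockout libraries 1 and 2 were level with wild type or above, and library 3 was far below, so that the log2 fold change was -0.21 ± 0.27 (SE) with that library and 0.12 without it. Myh10, non-muscle myosin IIB, stood at 7.91, 8.51 and 9.93 FPKM and at 8.26, 9.60 and 16.0, with its highest value in the same library (log2 fold change 0.28 ± 0.23, or 0.02 without it).

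Myh14, non-muscle myosin IIC (ENSMUSG00000030739.18, chromosome 7, 44605803 to 44670843), stood at 3.63, 3.26 and 2.95 FPKM in wild type and at 3.86, 4.50 and 6.04 in knockout libraries. It was higher in all 3 knockout libraries, with a log2 fold change of 0.42 ± 0.16 (SE), a limma unadjusted p of 0.0312 and an adjusted p of 0.592, and the log2 fold change was 0.28 without knockout library 3. As a share of the 3 heavy chains' summed FPKM, Myh9 held 86.0 to 87.1% in wild type, 87.9% and 85.1% in knockout libraries 1 and 2, and 65.7% in knockout library 3. In that library Myh10 held 24.9% and Myh14 9.41%.

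Of the light chains, Myl6 stood at 594, 533 and 634 FPKM in wild type and at 575, 513 and 460.2 in knockout libraries, with overlap (log2 fold change -0.19 ± 0.12 SE, limma adjusted p = 0.658, or -0.11 without knockout library 3). Myl12b, a regulatory light chain, stood at 74.2, 76.7 and 78.2 FPKM and at 79.3, 80.8 and 91.9, higher in all 3 knockout libraries by a small amount (log2 fold change 0.13 ± 0.09, limma adjusted p = 0.669, or 0.067 without that library). With the libraries scaled to the same FPKM sum, the groups of Myl12b overlapped. Its neighbour and close relative Myl12a stood at 89.5, 74.4 and 95.4 FPKM and at 87.1, 95.3 and 55.7 (log2 fold change -0.15 ± 0.21, or 0.083 without knockout library 3). The joint level of the pair was 163 ± 11.3 FPKM against 163 ± 14.5 without LIGHT (SD, n = 3 each), and Myom1 overlaps Myl12a on the opposite strand. Myl6b averaged 6.49 ± 1.32 and 6.86 ± 1.99 FPKM. Myl12a and Myl12b lie on chromosome 17 at 13.8 Mb from Tnfsf14, and 2 tubulins lie on the same chromosome, Tubb4a at 0.1 Mb and Tubb5 at 21.4 Mb.

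**Figure D2:**
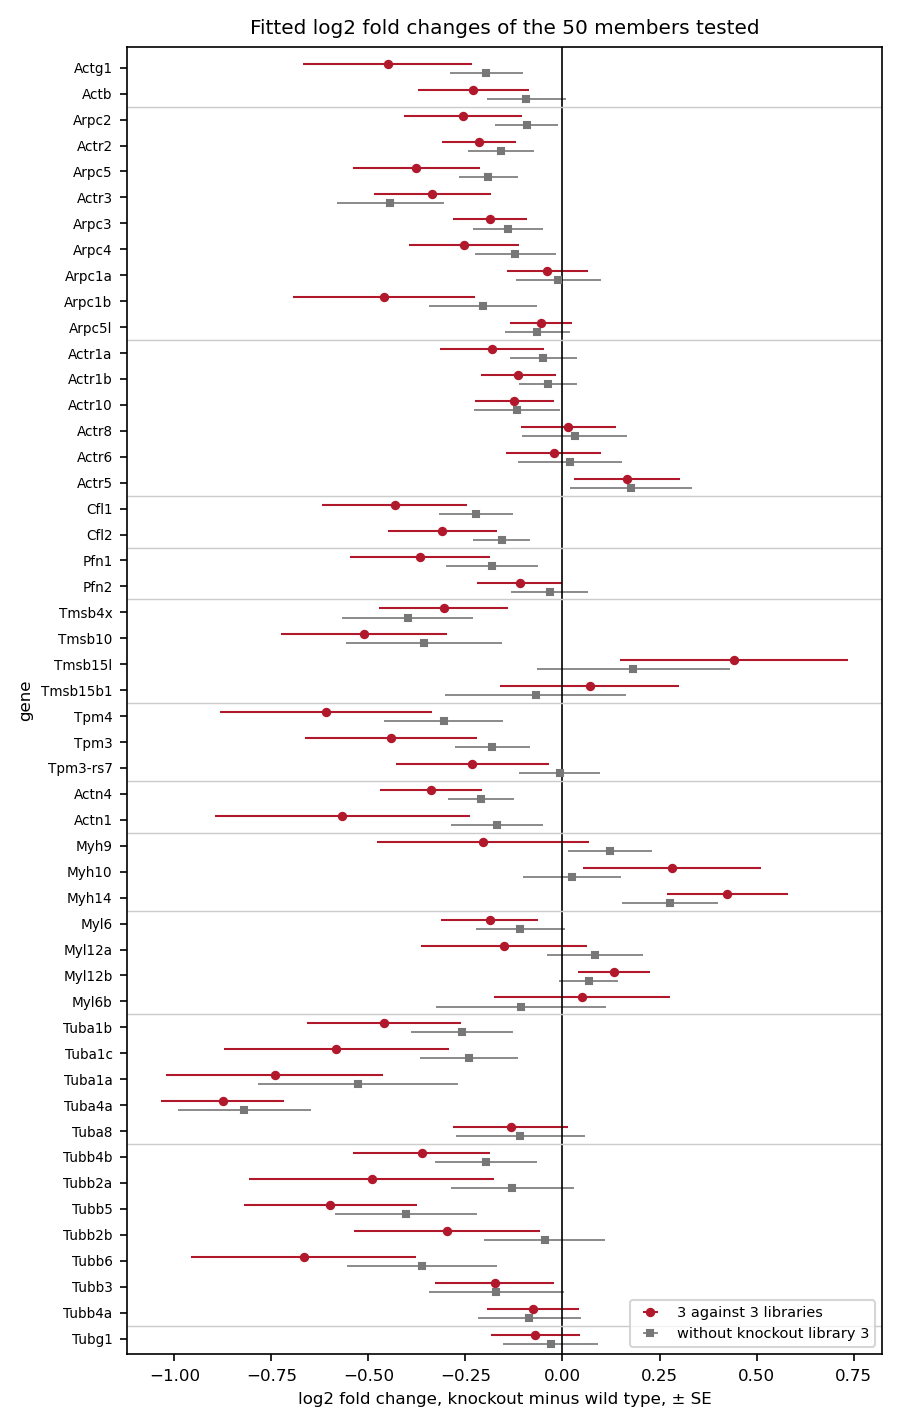
Points give the fitted log2 fold change of each of the 50 members tested and whiskers its SE, with all 6 libraries in red and without knockout library 3 in grey. Most red points lie left of 0, the median is -0.23 for the red points and -0.12 for the grey ones, and Tuba4a stays far left in both fits, at -0.88 and -0.82.

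All 13 tubulins had lower fitted values in the knockout, with a median log2 fold change of -0.46, or -0.20 without knockout library 3, and none was called. The exception in direction was Tubg1, at 0.029 without wild type library 3. Over all 6 libraries the smallest p of any member belonged to Tuba4a, an alpha-tubulin (ENSMUSG00000026202.13, chromosome 1, 75214228 to 75219865). It stood at 32.4, 24.5 and 21.6 FPKM in wild type and at 14.9, 13.5 and 12.5 in knockout libraries. The groups did not overlap, and knockout library 3 was close to the other knockout libraries. The log2 fold change was -0.88 ± 0.16 (SE), with a 95% interval of -1.25 to -0.50, a limma unadjusted p of 0.00102 and an adjusted p of 0.335. Without knockout library 3 it was -0.82 (limma adjusted p = 0.398). With library weights estimated by limma, it was -0.89 and passed the threshold (limma adjusted p = 0.0422), in a fit that called 52 genes over all.

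Stk16 overlaps Tuba4a on the opposite strand and averaged 8.60 ± 0.584 FPKM against 9.46 ± 1.63 without LIGHT (SD, n = 3 each). The library kit marks strand, but whether counting used it is not known here. Without strand the reads of the pair cannot be told apart where they overlap. Other members overlapped on the opposite strand are Arpc5l (by Rpl35), Cfl1 (Snx32), Arpc1b (Pdap1), Actr8 (Il17rb) and Myl12a (Myom1). Tuba4a shared 2.8% of its 31-base words with other genes, so its reads can mostly be placed. The alpha-tubulins Tuba1a, Tuba1b and Tuba1c share 77.0%, 68.9% and 55.3% with others, mainly with each other, and are better read as a sum. That sum was 394, 449.6 and 506 FPKM in wild type and 397, 329 and 215 in knockout libraries. Knockout library 1 was inside the wild type range, and the other two knockout libraries were below it. Tuba1a alone stood at 61.3, 92.4 and 118 FPKM and at 61.7, 59.3 and 38.3, with a log2 fold change of -0.74 ± 0.28 (SE; limma adjusted p = 0.592). Tuba1b, the most abundant alpha-tubulin, stood at 195, 211 and 243 FPKM and at 198, 164 and 118 (log2 fold change -0.46 ± 0.20, limma adjusted p = 0.592, or -0.26 without knockout library 3). Tuba8, at under 1 FPKM, had a log2 fold change of -0.13 ± 0.15.

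Among beta-tubulins, Tubb5, a widely expressed form, stood at 79.8, 88.0 and 122 FPKM in wild type and at 74.8, 68.6 and 47.4 in knockout libraries. The groups did not overlap, with a log2 fold change of -0.60 ± 0.22 (SE; limma adjusted p = 0.592) and -0.40 without knockout library 3. Tubb6 stood at 27.1, 27.1 and 40.7 FPKM and at 22.2, 25.8 and 12.3, also without overlap (log2 fold change -0.67 ± 0.29, limma adjusted p = 0.592, or -0.36 without that library). With the libraries scaled to the same FPKM sum, the groups of Tubb6 overlapped. Tubb4b, the most abundant beta-tubulin, stood at 179, 190.1 and 168 FPKM and at 178, 136 and 110.1, with overlap. Tubb2a and Tubb2b, which share much of their sequence, had joint levels of 163, 182 and 162 FPKM against 182, 134 and 78.8 in the libraries without LIGHT. Tubb3, known from neurons, and Tubb4a averaged under 1 FPKM in both groups, and Tubg1, gamma-tubulin, averaged 12.6 ± 1.67 and 11.9 ± 0.697 FPKM.

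**Figure D3:**
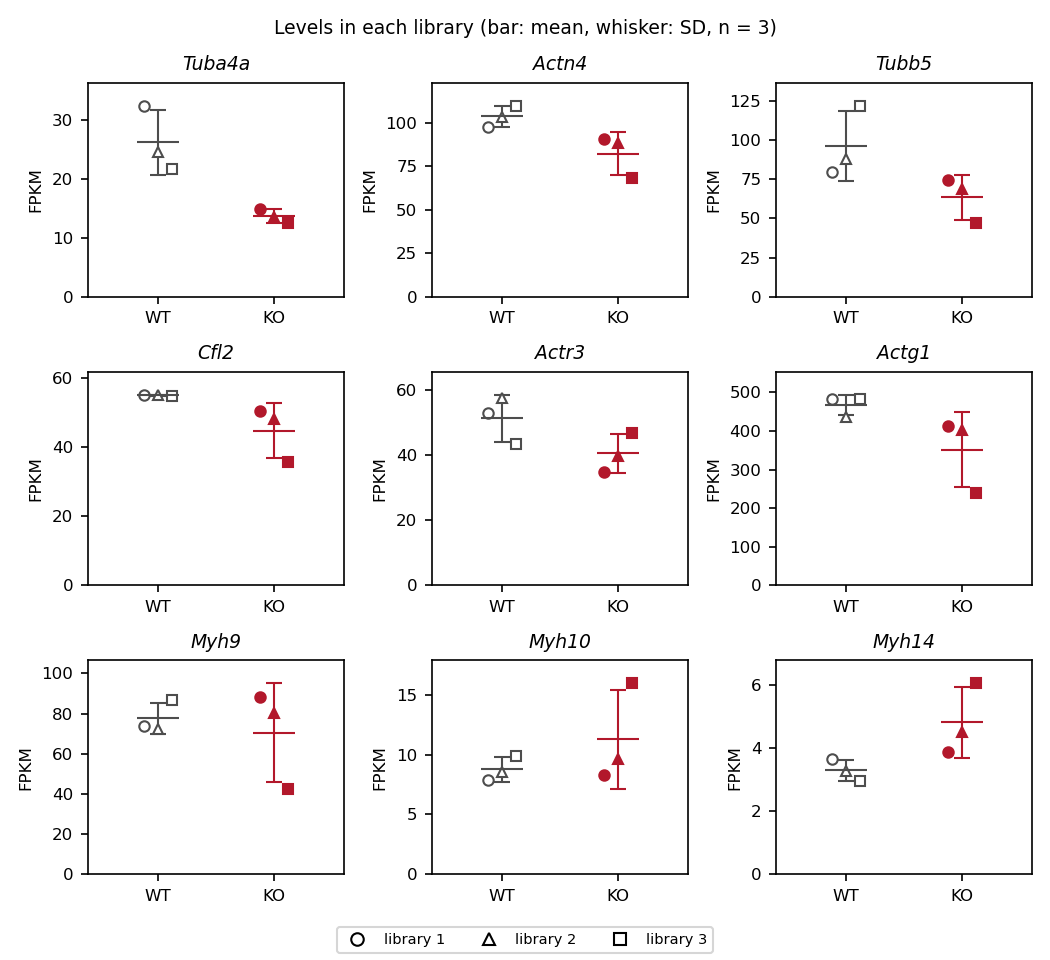
FPKM of 9 members in each library, with open symbols for wild type and filled symbols for knockout, a bar for the mean and a whisker for the SD (n = 3). Tuba4a is separated with all knockout libraries near 13.6 FPKM, while in Actg1, Cfl2 and Actn4 the knockout mean is drawn down most by library 3, and Myh9 and Myh10 part in that library in opposite directions.

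The regulators of these filaments had medians nearer to 0 than the members, and limma called none of the genes in the lists. At an unadjusted p under 0.05 in limma, 4.34% of all genes were higher and 3.74% lower, 8.08% in both directions. Of 17 unconventional myosins 3 were higher and 1 lower, and of 26 capping genes 1 was higher. Of 37 cross-linkers 2 were lower, and of 46 microtubule regulators 2 were lower. There were 0 among 27 nucleation promoters and formins and 0 among 6 genes around serum response factor. Lower fitted values, at any p, were found in 52.1% of all genes. They were found in 20 of 27 tested nucleation promoters and formins (median log2 fold change -0.10) and 18 of 26 capping, severing and turnover genes (-0.09). The same held in 27 of 37 cross-linkers and adhesion linkers (-0.17, or -0.04 without knockout library 3), 33 of 46 microtubule regulators (-0.06), 11 of 17 unconventional myosins (-0.04) and 5 of 6 genes around serum response factor (-0.14, or -0.06 without that library). Map4, which stabilises microtubules, had the smallest p among the microtubule regulators, at 11.1, 8.64 and 8.76 FPKM in wild type and 7.77, 6.43 and 5.66 in knockout libraries (limma adjusted p = 0.592). Ezr, which ties actin to the microvillar membrane, stood at 213, 263 and 221 FPKM and at 189, 199.8 and 135, with no overlap (limma adjusted p = 0.592).

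Other genes of the lists had higher values in the knockout. Myo7b, a myosin at the tips of brush border microvilli, averaged 10.4 ± 1.29 FPKM against 13.3 ± 0.916 without LIGHT (SD, n = 3 each). Eps8, which caps and bundles actin there, stood at 13.2, 13.6 and 12.8 FPKM and at 14.5, 17.7 and 17.7. In both genes the groups did not overlap, and both had a limma adjusted p of 0.592. Their named partners from the same lists went the opposite way, also without overlap. Myo1d, another unconventional myosin, averaged 17.5 ± 0.319 FPKM in wild type against 14.8 ± 0.727 without LIGHT. For Capzb, from the capping list, the means were 56.9 ± 2.05 and 48.1 ± 5.46 FPKM (limma adjusted p = 0.592 for each).

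**Figure D4:**
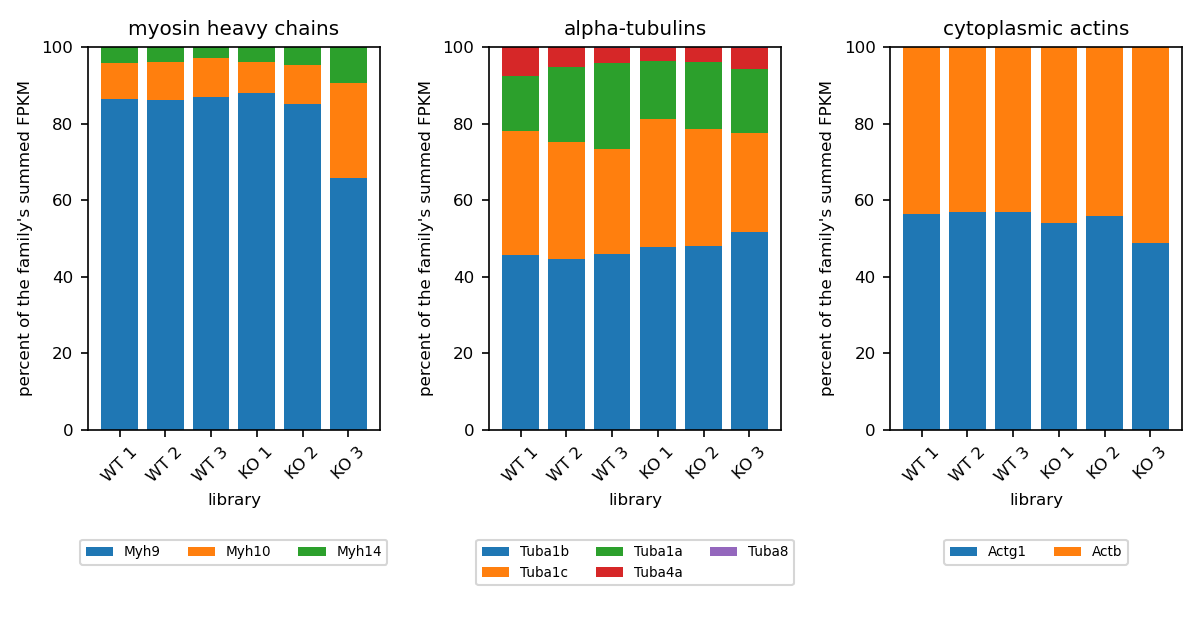
Stacked bars give, for each library, the percent of the family's summed FPKM held by each myosin heavy chain, alpha-tubulin and cytoplasmic actin. The Myh9 share is 85.1 to 87.9% in 5 libraries and 65.7% in knockout library 3, and the Actg1 share is 56.4 to 57.0% in wild type and 48.9 to 55.9% in knockout libraries.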

How the data were processed

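RNA of whole kidney was measured in 6 libraries, grouped by the genotype in the sample titles. The authors deposited gene levels as FPKM. Per the submitters' processing notes the tools were FastQC, HISAT2 and StringTie and the build mm10, while versions, annotation and strand setting are not given in the sources used here. Low values of single-transcript genes fell on whole multiples of 1 fragment in at most 22.5% of cases per library (within 0.03 fragments), so depth was not recovered and no count model was used. In every row the higher group mean was at least 0.50043 FPKM.

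Genes averaging at least 0.5 FPKM over the libraries were kept (12836 of 13026). After a log2(FPKM + 1) transform, groups were compared in limma 3.58.1 under R 4.3.3 with a mean-variance trend. P-values are two-sided and adjusted over all genes kept by the Benjamini-Hochberg method, and called under 0.05. With 3 libraries a group, the smallest p of an exact permutation test is 0.1. The fit was tested on simulated data with independent noise of equal size in every library. No simulated library stood apart, so that test does not cover a library like knockout library 3.

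The members and gene lists were chosen with earlier results of these data known. Named members were, per role, the most abundant, any called and up to 3 of smallest p, with Actb and Actg1 always, and up to 2 genes per list of regulators. The other members are named so that each of the 51 is accounted for. Positions and 31-base words are from GENCODE M21, which was built on the same assembly as mm10, and all 51 members were matched. No set test was run, and 1 list of regulators is not reported here. The alternatives covered pseudocounts, filters, scalings, variance models, library weights, a replicate block and each library left out.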

Additional observations from a re-analysis of the deposited data

How the results depend on the processing

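The median log2 fold change over the members stayed below 0 in all 18 alternatives, from -0.32 to -0.12, and 39 to 44 members were lower. No member was called in 17 of them, the exception being library weights, with 1 called (Tuba4a) and 52 genes called over all genes against 15. Leaving out 1 library gave 0 to 11 genes called over all genes and 0 members. With the replicate block 0 genes and 0 members were called. Whether shared replicate numbers pair the samples cannot be decided from deviations within groups of 3 libraries. Same-numbered libraries had correlations of deviations of 0.15, -0.13 and -0.02, and not every library matched its own number best. Among the members named by rule, reversed directions were found for Myh9 (0.072 with library weights, and -0.40 to 0.12 with 1 library left out), Myl12a (0.17 and -0.30 to 0.083 in the same settings), Tpm3-rs7 (0.014 with library weights) and Tubg1 (0.029 without wild type library 3). Of the others, Actr6, Arpc1a, Myl6b, Tmsb15b1 and Actr8 turned in at least 1 setting, Myl6b to -0.19 with library weights and Tmsb15b1 to -0.069 without knockout library 3. The cause was not tested. Counts added after the data were seen, of members lower without overlap, were 9 to 13 in the 4 other scalings, against 5.85 to 8.27% of all genes, and 18 to 30 with 1 library left out, against 12.2 to 16.2%. The count of 30 came without knockout library 1, against 14.5%. FPKM without depth give no limit of detection for members under 1 FPKM.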

Other observations

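Ratios between members within a library do not depend on its scaling, and those given here were chosen after their values were seen. The ratio of Actg1 to Actb was 1.30, 1.33 and 1.32 in wild type and 1.18, 1.27 and 0.956 in knockout libraries, lower in all 3 knockout libraries. Within the Arp2/3 complex, the share of summed FPKM held by Arpc1a was 7.15, 7.33 and 8.21% in wild type and 8.50, 8.21 and 9.59% in knockout libraries, and that of Arpc5l 3.25, 3.20 and 2.90% and 3.25, 3.37 and 4.12%. Rpl35 overlaps Arpc5l on the opposite strand, and its part in the Arpc5l share was not tested. Of the alpha-tubulins' summed FPKM, Tuba1b held 45.7, 44.5 and 45.9% in wild type and 47.8, 47.9 and 51.8% in knockout libraries, while Tuba4a held 7.58, 5.16 and 4.09% and 3.61, 3.93 and 5.49%, with overlap. Tuba1b shares most of its sequence with Tuba1a and Tuba1c, and these genes are better read as a sum. Its separate share rests on how reads were divided among them, which was not tested. Myl6 held 77.4 to 77.7% of the light chains' summed FPKM in wild type and 73.9 to 76.8% in knockout libraries. With 3 libraries a group, an exact permutation test of any of these shares cannot give a p below 0.1, and none was tested.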
